A study of Mus musculus with 10 samples.

Results

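The genes described here encode the proteins of the cytosolic ribosome, and they were followed in mouse neural stem cells with and without a deletion of Atrx, in growth medium and after growth factor withdrawal. Members were taken by gene symbol: Rpl or Rps followed by a number and an optional a, x, l or al, together with Rplp0, Rplp1, Rplp2 and Rpsa, without symbols of pseudogenes. This gave 81 of the 21101 genes in the table, of which 49 encode proteins of the large (60S) subunit and 32 encode proteins of the small (40S) subunit. Of the 81, 5 are secondary paralogs (Rpl3l, Rpl10l, Rpl36al, Rps4l and Rps27l) and 76 are core genes. The symbol rule leaves out Rps3a1 and Fau, which also encode ribosomal proteins and are given separately.

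All lines were p53-null mouse neural stem cells that had been transduced with IDH1(R132H), a mutant isocitrate dehydrogenase found in gliomas, so the controls carry both changes too. The Atrx-deleted lines were mA16d#4, mA19d#4 and mA19d#7, and the control lines were Control NSC#1 and Control NSC#2. Each line gave 1 library from cells kept for 8 days without growth factors in a neural basal, B27-supplemented differentiation medium, and 1 library from cells kept in proliferation medium, which held EGF and bFGF (20 ng/ml each). The 4 groups were Atrx-deleted and control lines in proliferation medium (3 and 2 libraries) and Atrx-deleted and control lines in differentiation medium (3 and 2 libraries). The labels give neither mouse strain nor how a line was derived, and nothing says that lines came from separate animals, so p-values measure the spread between these lines. ATRX is a chromatin remodeller that deposits the histone variant H3.3 with DAXX, and the series concerns its part in neuronal differentiation.

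Ribosomal proteins are made in matched amounts because each ribosome holds 1 copy of nearly every one of them, and their messages are among the most abundant in dividing cells. Most of these messages begin with a C followed by a run of pyrimidines, the 5′ terminal oligopyrimidine (TOP) motif, through which mTOR and LARP1 set their translation and stability when growth factors or nutrients change. Free RPL5 and RPL11, bound to 5S ribosomal RNA, inhibit MDM2 and thereby stabilise p53, a route that cells without p53 lack. In the nervous system, stem cells and early progenitors are known for high ribosome production, which declines as they leave the cell cycle.

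The first bases of these genes hold a pyrimidine run at the annotated start in some members and not in others. The windows below hold 20 bases before and 10 bases from the RefSeq start (GRCm38.p6) onward, with the longest run of C and T in capitals. The first 4 have the TOP form at the annotated start, and the other 6 are the members on which the comparisons below turn.
Rps6, chr4:86857358-86857387, minus strand: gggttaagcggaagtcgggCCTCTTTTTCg
Rpl35, chr2:39005122-39005151, minus strand: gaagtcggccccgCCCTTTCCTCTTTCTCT
Rpl28, chr7:4792945-4792974, plus strand: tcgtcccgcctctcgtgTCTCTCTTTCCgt
Rpl15, chr14:18270977-18271006, minus strand: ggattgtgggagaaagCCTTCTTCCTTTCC
Rpl37a, chr1:72711240-72711269, plus strand: gtcaCTTCCgctcgccggtctaaaaccgcg
Rplp0, chr5:115559447-115559476, plus strand: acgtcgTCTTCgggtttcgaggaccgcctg
Rpsa, chr9:120127746-120127775, plus strand: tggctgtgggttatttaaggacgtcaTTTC
Rpl19, chr11:98026690-98026719, plus strand: ccacgtgaccaaacgCCCTCactgcgcatg
Rpl12, chr2:32961692-32961721, plus strand: gcgtgggcggagcaggatccgTCTTTTCgg
Rpl39, chrX:37085213-37085242, minus strand: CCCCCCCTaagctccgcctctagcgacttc

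The windows of Rpl37a, Rplp0, Rpsa, Rpl19, Rpl12 and Rpl39 have no C followed by 4 pyrimidines at that base, which says only that these letters are not at the RefSeq start used. A second RefSeq window of Rpl19, not printed, holds a run of 11 pyrimidines and also lacks that form at its start. Of the 81 members, 60 matched an entry of the RefSeq promoter table and 21 did not. A C followed by at least 4 pyrimidines stood at a start of 21.7% of the matched members and of 3.01% of all 27025 genes in the table. A run of at least 8 pyrimidines lay within 25 bases of the start in 51.7% of the members and in 22.3% of all genes. In the 300 bases from 250 before to 50 after the start, searched on both strands, the ETS core CCGGAAG was present in 24 of 60 members and 9.93% of all genes, and the GC box GGGCGG in 61.7% and 38.2%. The YY1 core AAGATGG was present in 15.0% of members against 7.28% of all genes, and the E-box CACGTG in 6 of 60 members against 8.09% of all genes. The letters TATAA stood within the 50 bases before the start in 6.67% of members and 5.89% of all genes. The ETS core ends with the letters that open the YY1 core, so 1 stretch can hold both, and on the other strand the ETS core holds a short pyrimidine run.

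The table held log2 values of TPM (transcripts scaled for their length and for the library's total). The values had been quantile-normalised, so every library has the same set of values and sequencing depth is unknown. In such values a gene's level is set by its rank in the library, and a change in total RNA cannot be seen. Atrx itself had 71.6, 42.8 and 74.0 TPM in the Atrx-deleted lines in proliferation medium, against 162.6 and 149.0 TPM in the control lines. In differentiation medium it had 54.4, 47.2 and 54.0 TPM in Atrx-deleted lines, against 127.6 and 126.7 TPM in control lines. Atrx was lower in all 6 Atrx-deleted libraries, with a remaining level, and a value per gene does not show which exons were read. Not all libraries of the Atrx-deleted lines sorted by medium. Over all tested genes, the libraries labelled mA19d#7 and mA19d#4 in differentiation medium had their highest Spearman rho with a proliferation library (0.957 with mA16d#4 and 0.960 with mA19d#7). The mA16d#4 library in proliferation medium was nearest to that labelled mA19d#7 in differentiation medium, and the highest rho of mA16d#4 in differentiation medium was 0.953. Each control library was nearest to the other control library of the same medium (0.983 in proliferation and 0.978 in differentiation medium). Leaving out the differentiation library labelled mA19d#7 raised the count of members called in each of the 4 comparisons below, and results are given with and without it. The neural stem cell markers Nes, Sox2, Vim, Pax6, Fabp7, Hes1, Sox9, Msi1 and Prom1 were present, with summed levels from 9988 to 13464 TPM per library.

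Ribosomal protein genes had a higher summed level in Atrx-deleted than in control lines in both media. In all 5 lines the summed level was lower in differentiation than in proliferation medium. After quantile normalisation such sums reflect ranks, so the percents below are of the normalised total and not measured fractions of a library. In proliferation medium the members summed to 72086, 75388 and 70822 TPM in mA16d#4, mA19d#4 and mA19d#7, against 51716 and 57014 TPM in Control NSC#1 and Control NSC#2. In differentiation medium they summed to 50985, 60764 and 43503 TPM in the same Atrx-deleted lines, against 34758 and 36812 TPM in the control lines. The sums of the Atrx-deleted and control groups did not overlap in either medium, and the lowest of the Atrx-deleted libraries in differentiation medium was the one labelled mA19d#7. As a share of all TPM, the sum was 7.30% ± 0.237 in Atrx-deleted and 5.45% ± 0.376 in control lines in proliferation medium, and 5.19% ± 0.868 and 3.59% ± 0.146 in differentiation medium (SD, n = 3 Atrx-deleted and 2 control lines). The ratio of Atrx-deleted to control means was 1.34 in proliferation and 1.45 in differentiation medium, and in differentiation medium it was 1.56 without the library labelled mA19d#7. In bulk RNA, fewer cells of a type with high levels and less RNA per cell cannot be told apart.

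**Figure D1:**
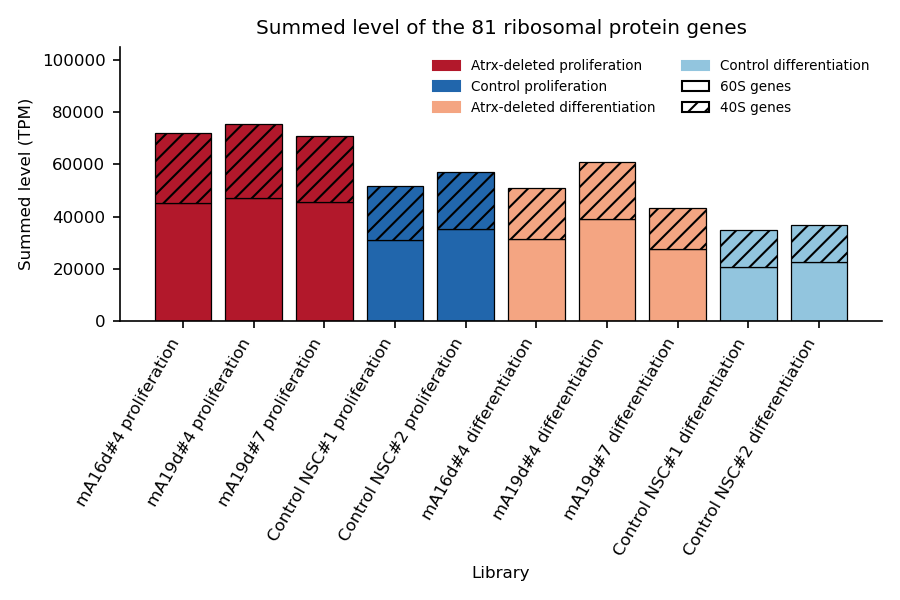
Summed level of the 81 ribosomal protein genes in each of the 10 libraries, in TPM, with the 60S genes as plain bars and the 40S genes hatched on top. In both media each Atrx-deleted library lies above both control libraries, and in each line the differentiation library lies below the proliferation library.

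Both subunits took part, with a higher ratio of summed 60S to summed 40S level in the Atrx-deleted lines. The summed 60S level over the summed 40S level was 1.67, 1.68 and 1.79 in Atrx-deleted and 1.49 and 1.63 in control lines in proliferation medium. In differentiation medium it was 1.60, 1.80 and 1.72 in Atrx-deleted and 1.497 and 1.56 in control lines. The groups did not overlap in either medium, although the lowest Atrx-deleted value lay close to the highest control value. A few genes carry much of these sums, since the 10 members of highest level held between 33.7% and 39.9% of the summed level in each library.

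Levels within the family spanned a wide range. Rpl41, which encodes the smallest ribosomal protein, was highest with a mean of 3847 TPM over all libraries, followed by the stalk genes Rplp0 (2551 TPM) and Rplp1 (2200 TPM), Rpl8 (2076 TPM) and Rpl7 (1986 TPM). Rpl41 had the same value, 4715 TPM, in 5 of the 10 libraries, because quantile normalisation gives genes of equal rank the same level. The members of lowest level were Rpl10l (0.0199 TPM), Rps4l (0.0830 TPM), Rpl3l (1.27 TPM), Rps21 (8.30 TPM) and Rpl34 (22.3 TPM). Of the 81 members, 15 averaged at least 1000 TPM and 8 averaged under 100 TPM. Rpl10l, which in mice serves the male germ line, and Rps4l did not reach 1 TPM in any library and were not tested, which leaves 79 tested members. These passed a filter of at least 1 TPM in at least 2 libraries.

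Many processed copies of these genes lie elsewhere in the genome, and the aligner's handling of such reads is not given in the sources used here. Of the 80 members with an annotated coding sequence, 28 shared every stretch of 50 coding bases with a transcript of another gene in GENCODE M21, and the median member shared 90.2% of them. Rpl7a shared stretches with 123 other genes, whereas Rpl3l shared none. The low levels of Rps21, Rpl34 and Rps29 and the level of every member named here can therefore depend on how the authors assigned reads. The 13 tested members with under 50% of stretches shared had a median log2 difference between Atrx-deleted and control lines of 0.29 in proliferation and 0.32 in differentiation medium, beside 0.48 and 0.34 for the other 66. For differentiation against proliferation medium the 13 had medians of -0.63 in control and -0.38 in Atrx-deleted lines, beside -0.52 and -0.55 for the other 66.

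In proliferation medium, ribosomal protein genes lay higher in Atrx-deleted than in control lines, with 1 gene past the test. Log2 differences here are of log2(TPM + 1) from limma with a mean-variance trend over all 10 libraries, and a call is a Benjamini-Hochberg adjusted p below 0.05 over 15660 tested genes. Of 79 tested members, 70 had a positive difference, and 1 rose and 0 fell, beside a share of all tested genes that rose of 0.262% and that fell of 0.198%. Without adjustment, 26 members (32.9%) had p below 0.05, beside 13.7% of all tested genes. The median over the members was a log2 difference of 0.46, beside -0.02 over all tested genes, with 0.49 for the 48 60S and 0.38 for the 31 40S genes. In 46 members (58.2%) all Atrx-deleted libraries lay above all control libraries and in 2 members (2.53%) all lay below, against 17.8% and 20.2% of all tested genes.

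The gene that rose was Rpl37a, which encodes a zinc-binding protein of the 60S subunit. It had 578, 589.8 and 608 TPM in mA16d#4, mA19d#4 and mA19d#7, against 278 and 322 TPM in the control lines. The Atrx-deleted libraries lay within a narrow range well above both control libraries. The log2 difference was 0.98 ± 0.17 (SE, adjusted p = 0.0479). Just short of the threshold lay Rpl39, Rps12 and Rps27a, the last 2 of which were chosen for mention after their values were seen. Rpl39, an X-linked gene for a small protein of the exit tunnel, had 359, 821 and 934 TPM in Atrx-deleted lines, against 176 and 175 TPM in control lines, the largest difference of any member in this comparison (log2 1.89 ± 0.35, adjusted p = 0.0520). The mA16d#4 library had less than the other Atrx-deleted libraries and still lay above both controls. Rps27a, which encodes a fusion of ubiquitin with a 40S protein, had 677, 569.7 and 496 TPM against 218 and 246 TPM (log2 1.31, adjusted p = 0.0583). Rps12 had 320.2, 357 and 352 TPM against 177 and 213 TPM (log2 0.82, adjusted p = 0.0533).

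The call on Rpl37a was lost, with 0 members called, when the library of either control line in either medium, the proliferation library of mA19d#4 or mA19d#7, or the differentiation library of mA16d#4 was left out. Without the proliferation library of mA16d#4 it was lost too, and Rpl39 was the 1 member called. Without the differentiation library labelled mA19d#4 it was 1 of 4 members called, and without that labelled mA19d#7 it was 1 of 5 (Rpl39, Rps27a, Rpl37a, Rps12 and Rpl5), where 0.983% of all tested genes rose.

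**Figure D2:**
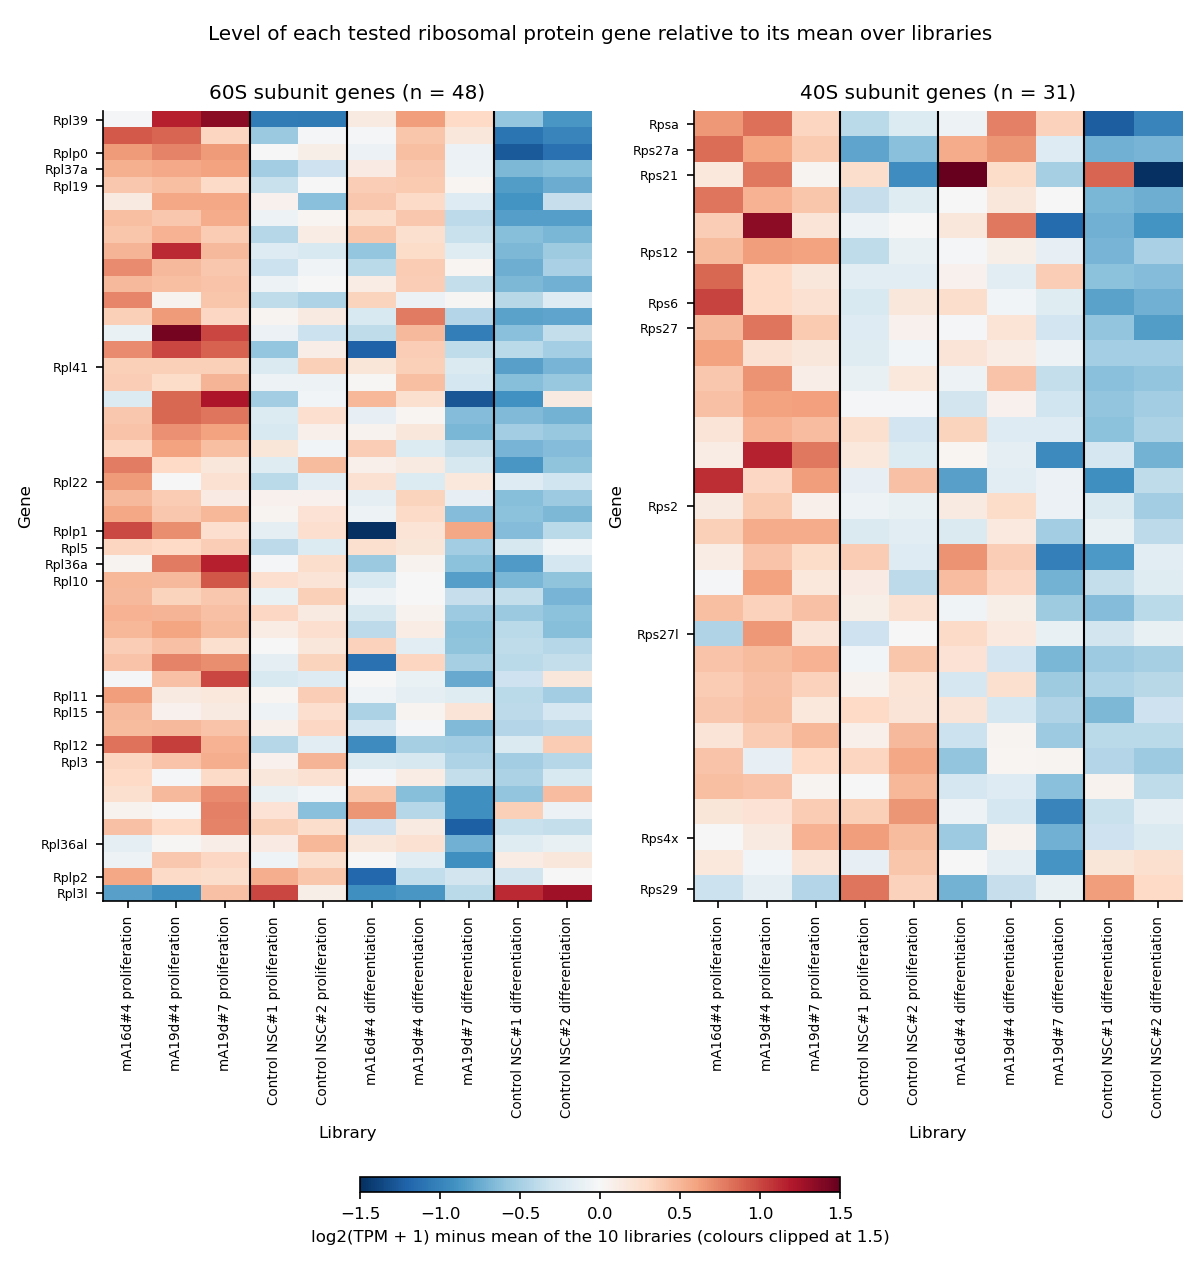
Level of each of the 79 tested ribosomal protein genes in each library as log2(TPM + 1) minus the gene's mean over the 10 libraries (red higher, blue lower, colours clipped at 1.5), for 48 60S genes and 31 40S genes sorted by the difference between Atrx-deleted and control lines; some of the members described in the text are labelled. Most rows are red in the 3 Atrx-deleted libraries in proliferation medium and blue in the 2 control libraries in differentiation medium, while Rps29, and Rpl3l in most libraries, run the other way.

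In differentiation medium, 5 ribosomal protein genes rose in Atrx-deleted relative to control lines, among them Rpsa, Rplp0, Rpl19 and Rpl37a. None fell, and 65 of 79 had a positive difference, beside shares of all tested genes of 1.55% that rose and 1.33% that fell. The median log2 difference was 0.33 over the members and 0.02 over all tested genes, with 0.32 for 60S and 0.36 for 40S genes. All Atrx-deleted libraries lay above all control libraries in 33 members and below them in 6, against 18.2% and 18.1% of all tested genes. The 6 were Rpl12, Rpl24, Rpl3l, Rplp2, Rps15a and Rps29, some of which were not named by the rule and are given because of this position.

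Rpsa, whose product is a 40S protein also known as the laminin receptor precursor, had 1067, 1896 and 1433 TPM in mA16d#4, mA19d#4 and mA19d#7, against 476 and 565 TPM in Control NSC#1 and Control NSC#2. Its levels did not overlap between the groups, although they spread widely among the Atrx-deleted lines (log2 1.46 ± 0.28, adjusted p = 0.0262). Rplp0, which anchors the stalk that recruits elongation factors, had 2197, 3167 and 2197 TPM in Atrx-deleted lines, against 969 and 1067 TPM in control lines. Each Atrx-deleted library lay above both controls by a wide margin (log2 1.29 ± 0.27, adjusted p = 0.0375). Rpl19, whose product forms a bridge between the subunits, had 856, 869 and 679.8 TPM against 369.9 and 394 TPM (log2 1.06 ± 0.19, adjusted p = 0.0226). Rpl37a had 434, 526 and 379 TPM against 249 and 256 TPM (log2 0.81 ± 0.17, adjusted p = 0.0397). In these 4 genes the groups were apart, and in Rpl19 and Rpl37a the library labelled mA19d#7 was the lowest of the Atrx-deleted libraries.

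**Figure D3:**
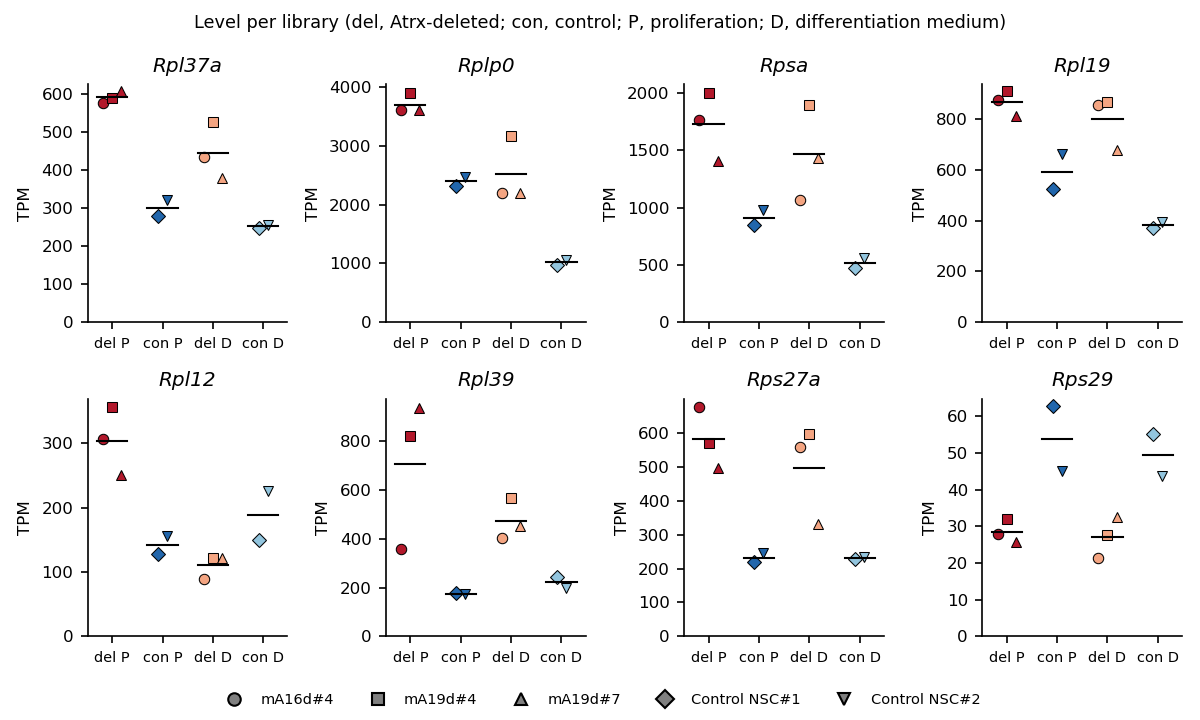
Level per library in TPM (linear axes from 0) of Rpl37a, Rplp0, Rpsa, Rpl19 and Rpl12, each called in a comparison, with Rpl39, Rps27a and Rps29; each symbol is a line, and horizontal bars are group means of 3 Atrx-deleted (del) or 2 control (con) libraries in proliferation (P) or differentiation (D) medium. The Atrx-deleted libraries lie above the control libraries in both media for 6 of the genes, below them in both media for Rps29, and above in proliferation but below in differentiation medium for Rpl12.

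Without the library labelled mA19d#7, 15 members were called, with all 5 among them: 14 rose and Rps29 fell, where 3.26% and 2.71% of all tested genes rose and fell, and the median log2 difference was 0.49. The count was 0 without either control library in differentiation medium, 2 without either control library in proliferation medium, 3 without the proliferation library of mA19d#4 or mA19d#7 or the differentiation library of mA19d#4, and 0 with the 2 groups fitted alone. Cycling markers moved in the same comparison: 6 of 8 (among them Ccnb1, Top2a and Cdk1) rose, with summed levels of 446 to 956 TPM in Atrx-deleted and 228 to 241 TPM in control libraries, and their part in the result was not tested. Astrocyte markers summed to 2425 to 4152 TPM in Atrx-deleted and 7191 to 8351 TPM in control libraries in differentiation medium, and neuronal markers to 425 to 1203 TPM and 798 to 817 TPM, whose part was not tested either. Of these lists Apoe and Rbfox3 fell. Apoe held most of the astrocyte sum in control libraries, with 5423 and 6640 TPM, against 1451, 977 and 955 TPM in Atrx-deleted libraries. Of the 6 astrocyte markers, 4 had a positive difference (median log2 0.26). Of the 5 tested neuronal markers, 2 did (median log2 -0.01). In proliferation medium 0 of the 8 cycling markers passed between genotypes, and their part was not tested there either. The cycling markers summed to 800.1 to 1037 TPM in Atrx-deleted and 694 to 1064 TPM in control libraries in that medium. Markers of microglia, endothelial or mural cells and mesenchymal cells summed to at most 7.20, 8.86 and 9.56 TPM in any library, with 3 of 6, 3 of 6 and 2 of 6 markers under 1 TPM in all libraries.

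In the control lines, ribosomal protein genes lay lower in differentiation than in proliferation medium, and Rplp0 passed the test. Of 79 members, 67 had a negative difference, and 1 fell and 0 rose, beside 2.56% of all tested genes that fell and 1.95% that rose. The median log2 difference was -0.55 over the members and -0.01 over all tested genes, with -0.54 for 60S and -0.57 for 40S genes. In 57 members (72.2%) both differentiation libraries lay below both proliferation libraries and in 2 (Rpl39 and Rpl3l) above, against 31.6% and 29.6% of all tested genes. Rplp0 had 969 and 1067 TPM in differentiation medium, against 2325 and 2471 TPM in proliferation medium, in Control NSC#1 and Control NSC#2. In both lines the differentiation library lay far below either proliferation library (log2 -1.24 ± 0.30, adjusted p = 0.0462). With the cell line as a fixed replicate block 0 members were called, with a random block 2 (Rplp0 and Rpl35), and with the 2 control groups fitted alone 26 fell, where 6.85% of all tested genes fell. The count was 0 when any of the other libraries was left out, 4 without the Atrx-deleted differentiation library of mA19d#4 and 11 without that labelled mA19d#7, libraries that enter this comparison only through the shared estimate of spread. Cell type markers moved between the media in the same lines: 5 of 8 cycling markers fell (median log2 -2.36), with sums of 228 to 241 TPM in differentiation and 694 to 1064 TPM in proliferation medium. The astrocyte markers Apoe (log2 3.53, adjusted p = 0.0108) and Slc1a3 (log2 1.23, adjusted p = 0.0370) rose, and the stem cell marker Nes fell (log2 -1.15, adjusted p = 0.0262). Of the 6 astrocyte markers, 3 had a positive difference (median log2 -0.33). Of the 9 stem cell markers, 5 did (median log2 0.08). The part of these markers in the result was not tested.

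In the Atrx-deleted lines the members also lay lower in differentiation medium, and Rpl12 passed the test. Of 79 members, 78 had a negative difference, and 1 fell and 0 rose, beside 0.0702% of all tested genes that fell and 0.0128% that rose. The median log2 difference was -0.51, beside 0.01 over all tested genes, with -0.53 for 60S and -0.51 for 40S genes. In 35 members (44.3%) all differentiation libraries lay below all proliferation libraries and in 0 above, against 7.85% and 8.65% of all tested genes. Without the library labelled mA19d#7 the median was -0.40 and 2 members fell, Rpl12 and Rplp2, where 1.25% of all tested genes fell. In these lines 0 of 8 cycling markers passed between media (median log2 -0.48), with sums of 446 to 956 TPM in differentiation and 800.1 to 1037 TPM in proliferation medium, and their part was not tested.

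Rpl12, which encodes a protein at the base of the stalk, had 89.7, 122 and 121 TPM in differentiation medium, against 306, 356 and 250.04 TPM in proliferation medium, in mA16d#4, mA19d#4 and mA19d#7. Every Atrx-deleted line had a lower level in differentiation medium, and the media did not overlap (log2 -1.45 ± 0.21, adjusted p = 0.0488). In the control lines it had 149 and 226 TPM in differentiation medium, against 129 and 156 TPM in proliferation medium, so the media overlapped there (log2 0.38 ± 0.25, adjusted p = 0.468). The difference between these responses was -1.82 ± 0.33 on the log2 scale (adjusted p = 0.230) and did not pass. The call on Rpl12 in Atrx-deleted lines was lost with a fixed replicate block and without any 1 library other than the differentiation libraries of mA19d#4 and mA19d#7, and 4 members fell without the library of mA19d#4 (Rpl36, Rpl12, Rpl18 and Rpl13a).

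Line by line, the family was lower in differentiation medium in each of the 5 lines. The share of tested members with a lower level was 79.7% in mA16d#4, 88.6% in mA19d#4 and 93.7% in mA19d#7, against 82.3% in Control NSC#1 and 84.8% in Control NSC#2. Over all tested genes the share ran from 46.7% to 51.5%. The summed level in differentiation over that in proliferation medium was 0.707, 0.806 and 0.614 in the Atrx-deleted lines. In the control lines it was 0.672 and 0.646. The Atrx-deleted lines lay on both sides of the controls, with only mA19d#7 below them. The ratio of group means was 0.711 in Atrx-deleted and 0.658 in control lines. Without the differentiation library labelled mA19d#7 it was 0.768 in Atrx-deleted lines. In the test of the difference between the responses 0 members passed, with 1 member (Rpl12) and 1099 of all tested genes at p below 0.05 before adjustment and a smallest adjusted p of 0.230, beside 0.00639% of all tested genes called. The next smallest was 0.741, for Rpl27. The median of this difference was 0.01 on the log2 scale over the members and 0.03 over all tested genes, and its sign turned with the processing, with values down to -0.12 without 1 library. The comparisons share libraries, so values from them are set side by side and no overlap between them is given.

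**Figure D4:**
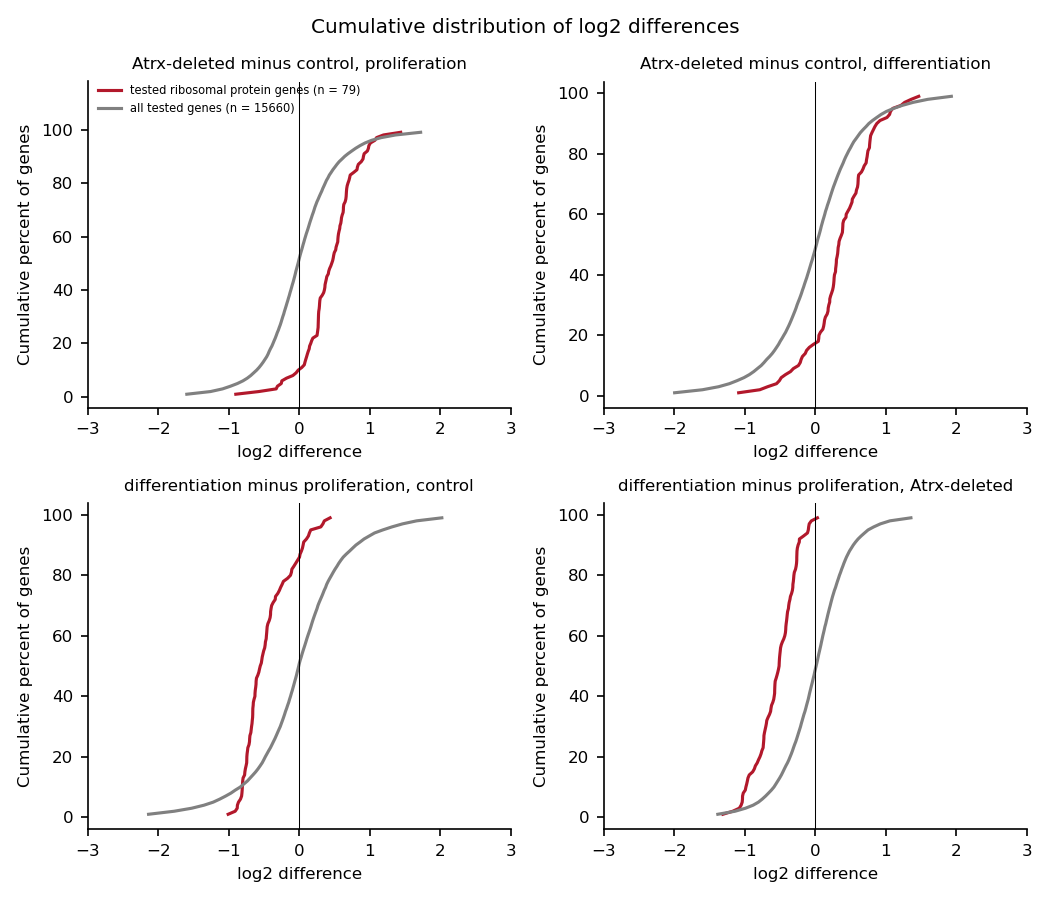
Cumulative percent of genes against the log2 difference (1st to 99th percentile) for the 79 tested ribosomal protein genes (red) and all 15660 tested genes (grey) in 4 comparisons. The red curves lie to the right of the grey in the upper panels (medians 0.46 and 0.33) and to the left in the lower panels (medians -0.55 and -0.51), over most of their height.

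The stalk, which recruits the elongation factors to the ribosome, was uneven. Rplp1 had 3902, 3167 and 2325 TPM in Atrx-deleted and 1771 and 2325 TPM in control lines in proliferation medium, and 575, 2268 and 2941 TPM in Atrx-deleted and 1247 and 1479 TPM in control lines in differentiation medium. The mA16d#4 library in differentiation medium was the lowest for Rplp1, and the groups overlapped in both media (adjusted p = 0.703 and 0.884). Rplp2 had 109, 192 and 204 TPM in Atrx-deleted and 205 and 248 TPM in control lines in differentiation medium, with each Atrx-deleted library below both controls (log2 -0.47, adjusted p = 0.330). In proliferation medium Rplp2 had 369, 303 and 297 TPM in Atrx-deleted and 362 and 331 TPM in control lines, which overlapped. Rplp0, given above, was higher in Atrx-deleted lines in both media, so the 3 stalk genes did not run together.

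Among members known for roles in signalling, none passed in any comparison. Rps6, whose product is phosphorylated by S6 kinase downstream of mTOR, had 575, 349.7 and 332 TPM in Atrx-deleted and 242 and 318 TPM in control lines in proliferation medium, and 341, 277 and 251 TPM in Atrx-deleted and 162 and 172 TPM in control lines in differentiation medium. Its Atrx-deleted libraries lay above both controls in both media (log2 0.54 and 0.78, adjusted p = 0.375 and 0.122). Rpl5 had 304, 299.6 and 314 TPM in Atrx-deleted and 185 and 212 TPM in control lines in proliferation medium, and 288, 276 and 169 TPM in Atrx-deleted and 206 and 233 TPM in control lines in differentiation medium. Only the proliferation values of Rpl5 were apart (log2 0.62, adjusted p = 0.252), and the library labelled mA19d#7 was the lowest in differentiation medium. Rpl11 had 831, 588 and 598 TPM in Atrx-deleted and 548 and 692 TPM in control lines in proliferation medium, where the groups overlapped. In differentiation medium Rpl11 had 516, 489 and 473 TPM in Atrx-deleted and 405 and 374 TPM in control lines (log2 0.34, adjusted p = 0.381). Rpl3, which helps form the peptidyl transferase centre, was nearly level between genotypes (log2 0.15 in proliferation and 0.17 in differentiation medium, adjusted p = 0.802 and 0.697). Rps27 had log2 differences of 0.63 and 0.68 between genotypes (adjusted p = 0.203 and 0.0902).

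The X-linked members differed among themselves. Rpl39 was higher in Atrx-deleted lines in proliferation medium as given above, and had 403, 567 and 450.1 TPM in Atrx-deleted and 245 and 199 TPM in control lines in differentiation medium (log2 1.08, adjusted p = 0.123). Rps4x, a 40S gene with a Y-linked counterpart in primates, had 1464, 1612 and 2104 TPM in Atrx-deleted and 2268 and 2039 TPM in control lines in proliferation medium, with overlap and the opposite sign (log2 -0.33, adjusted p = 0.650). Rpl10, whose product completes the 60S subunit and is needed for the subunits to join, had 811, 806 and 1094 TPM against 683 and 654 TPM in the same comparison (log2 0.42, adjusted p = 0.505). Rpl36a had 152, 255 and 334 TPM against 145 and 177 TPM (log2 0.55, adjusted p = 0.506). Rpl39 and Rpl10 were apart between genotypes in this medium, whereas Rps4x and Rpl36a overlapped.

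Paralogs did not all follow the genes they resemble. Rpl36al, an autosomal copy of Rpl36a, had 358, 398 and 421 TPM in Atrx-deleted and 429 and 556 TPM in control lines in proliferation medium, below both controls in each Atrx-deleted library (log2 -0.32, adjusted p = 0.653). Of the summed Rpl36a and Rpl36al level, Rpl36al held 70.2%, 60.9% and 55.8% in Atrx-deleted and 74.7% and 75.8% in control lines in that medium. The coding sequences of Rpl36a and Rpl36al each share all stretches of 50 bases with other genes, so reads could have moved between copies. Rpl3l, known from heart and skeletal muscle, had 0.00391, 0.0350 and 0.432 TPM in Atrx-deleted and 3.13 and 3.57 TPM in control lines in differentiation medium (log2 -1.93 ± 0.51, adjusted p = 0.0737). In proliferation medium it had 0.0794, 0.00391 and 1.57 TPM in Atrx-deleted and 2.81 and 1.01 TPM in control lines, so only the differentiation values were apart, all of them low. Rpl22l1, which lies outside the symbol rule, had 50.4, 150.1 and 173 TPM in Atrx-deleted and 30.0 and 26.3 TPM in control lines in proliferation medium (log2 1.93, adjusted p = 0.159). Its parent Rpl22 had 629, 404 and 469.8 TPM against 303 and 358 TPM (log2 0.58, adjusted p = 0.285), so Rpl22l1 was highest in both mA19d lines while Rpl22 was highest in mA16d#4. Rpl7l1 had log2 differences of 0.48 and 0.80 between genotypes (adjusted p = 0.447 and 0.124), and Rps27l had 0.28 and 0.30.

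Rps29 lay lower in Atrx-deleted lines in both media, unlike most members, and was picked out after its values were seen as well as being among the 8 genes under 100 TPM. It had 28.0, 31.9 and 25.8 TPM in Atrx-deleted and 62.7 and 45.2 TPM in control lines in proliferation medium (log2 -0.88 ± 0.23, adjusted p = 0.139). In differentiation medium it had 21.4, 27.7 and 32.6 TPM in Atrx-deleted and 55.1 and 43.8 TPM in control lines (log2 -0.85 ± 0.23, adjusted p = 0.0805). All 6 Atrx-deleted libraries lay below all 4 control libraries. All of its coding stretches of 50 bases are shared with 7 other genes.

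Across the 10 libraries the members varied together. Over the 78 members with at least 5 TPM in every group mean, the median Pearson r of log2(TPM + 1) between 2 members was 0.62 over 3003 pairs, and 94.2% of pairs were above 0. The points of each correlation are the 10 libraries, which share medium, genotype and normalisation, so r describes these libraries. A first principal component held 58.2% of the variance of these members and a second 13.3%. Rps29 had the lowest median r with the other members, -0.42, followed by Rpl38 with 0.18. The median SD of a member over libraries was 0.472 on the log2 scale, beside 0.334 over 11073 genes with the same minimum. Rps2 (0.264), Rpl7a (0.275) and Rpl15 (0.2997) varied least. Rps21 (1.24), Rpl39 (0.883) and Rplp1 (0.796) varied most. Rps21 was listed at 0.021 TPM in Control NSC#2 and at 12.02 TPM in Control NSC#1 in differentiation medium, and from 2.73 to 24.5 TPM in the other libraries.

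The ribosomal protein genes that the symbol rule leaves out lay on the same side as the members. Fau, which encodes a ubiquitin-like protein fused to a 40S protein, had 937, 652 and 561 TPM in Atrx-deleted and 432 and 596 TPM in control lines in proliferation medium, and the groups overlapped (log2 0.46, adjusted p = 0.626). Rps3a1, also a 40S gene, had 842, 1258 and 667 TPM in Atrx-deleted and 573 and 586 TPM in control lines in differentiation medium, with each Atrx-deleted library above both controls (log2 0.62, adjusted p = 0.235). In the other medium the differences between genotypes were 0.09 for Fau and 0.23 for Rps3a1, and neither gene passed in any comparison.

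Other genes tied to ribosome production did not share both patterns. The other messages with a TOP motif, mostly translation factors (24 tested), had median log2 differences between Atrx-deleted and control lines of 0.07 and 0.18, and of -0.37 and -0.44 for differentiation against proliferation medium in control and in Atrx-deleted lines. Eef2, the factor that moves the ribosome along the message, fell to 1504 and 1411 TPM in differentiation medium, against 2941 and 4185 TPM in proliferation medium, in the control lines (log2 -1.27 ± 0.31, adjusted p = 0.0459). Eif4b, an initiation factor that stimulates the helicase eIF4A, fell to 347 and 371 TPM, against 799 and 877 TPM in proliferation medium (log2 -1.22 ± 0.28, adjusted p = 0.0370). Eif3k, a subunit of the initiation factor eIF3, fell in Atrx-deleted relative to control lines in differentiation medium (log2 -1.13 ± 0.18, adjusted p = 0.0144), with 55.0, 49.9 and 41.5 TPM against 106.5 and 107.6 TPM. For Tpt1 and Gas5, which carry TOP motifs too, the log2 differences between genotypes were 0.08 and 0.35 and 0.26 and 0.19, and no comparison passed. Eef1a1 had the same value, 11021 TPM, in all 5 proliferation libraries, as the normalisation fixes the level of a given rank.

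The 38 ribosome biogenesis genes had medians of 0.24 and 0.29 between genotypes, and of 0.35 in control and 0.27 in Atrx-deleted lines between media, where the ribosomal protein genes had the opposite sign. Of the 38, 34 had a positive difference between genotypes in proliferation and 32 in differentiation medium. Between media, 29 had a positive difference in control and 32 in Atrx-deleted lines. Rrp9, a protein of the U3 snoRNP that processes ribosomal RNA, rose to 23.9 and 15.4 TPM in differentiation medium, against 6.06 and 6.81 TPM in proliferation medium, in the control lines (log2 1.44 ± 0.34, adjusted p = 0.0418), and no other biogenesis gene passed. For the nucleolar proteins Npm1, Ncl and Fbl the log2 differences between genotypes in proliferation medium were 0.27, 0.08 and -0.38 (adjusted p = 0.683, 0.913 and 0.464). Of 15 RNA polymerase I genes, Polr1a, the largest subunit, rose in Atrx-deleted lines in differentiation medium with 53.5, 57.6 and 41.0 TPM, against 27.0 and 26.4 TPM in control lines (log2 0.89 ± 0.19, adjusted p = 0.0362). The list as a whole had a median of 0.10 in that comparison.

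**Figure D5:**
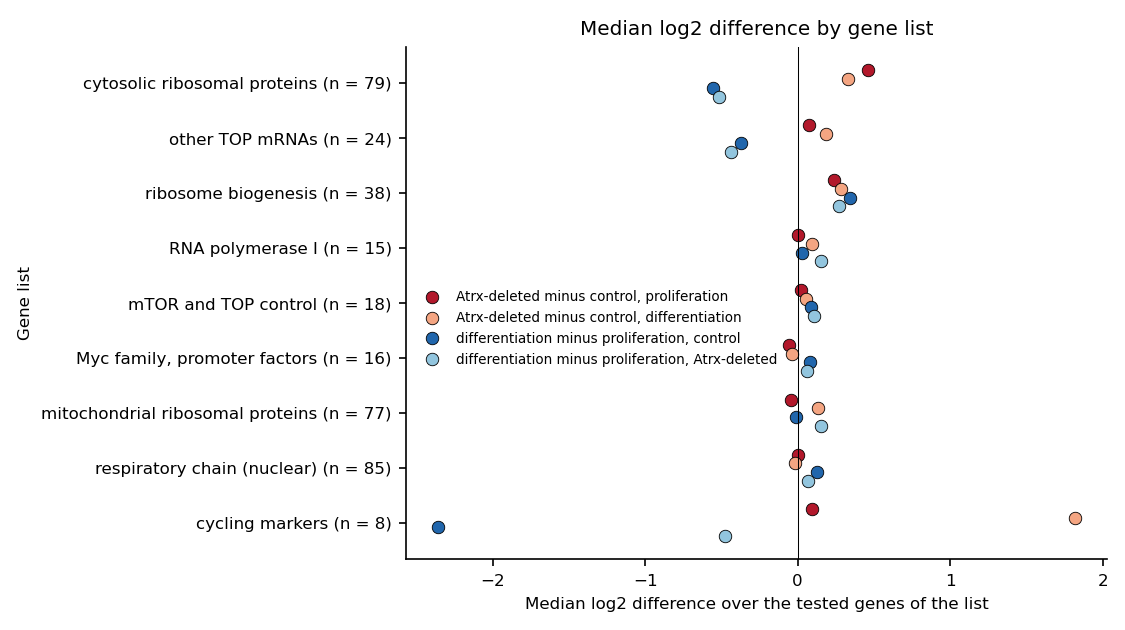
Median log2 difference over the tested genes of 9 gene lists in 4 comparisons (colours), with the number of tested genes beside each list name. The cytosolic ribosomal protein genes have positive medians between genotypes and negative medians between media, the other TOP messages share the negative medians between media, and the ribosome biogenesis genes have positive medians in all 4.

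The lists of regulators known to act on these messages had small median differences, although single genes such as Myc and Mycn differed by more. Of 18 tested genes of mTOR signalling and TOP control none passed in any comparison, with medians between 0.02 and 0.11, and Mtor, Larp1 and Rps6kb1 had log2 differences between genotypes in proliferation medium of 0.11, 0.30 and -0.26 (adjusted p = 0.825, 0.589 and 0.671). Of 16 genes of the Myc family and promoter factors none passed either, with medians of -0.06 and -0.04 between genotypes in proliferation and differentiation medium. Myc had 80.2, 108 and 103 TPM in Atrx-deleted and 58.4 and 51.0 TPM in control lines in proliferation medium (log2 0.81 ± 0.31, adjusted p = 0.286), with no overlap between the groups. Mycn was low, with 13.5, 4.30 and 7.20 TPM against 1.31 and 3.21 TPM, also without overlap (log2 1.46, adjusted p = 0.354). In differentiation medium the groups overlapped for both genes (log2 0.64 for Myc and -0.04 for Mycn, adjusted p = 0.272 and 0.982). In the list of the ribosomal stress and p53 axis, Cdkn1a, the cell cycle inhibitor p21, rose in Atrx-deleted lines to 68.1, 67.2 and 59.0 TPM, against 11.1 and 9.36 TPM in control lines, in proliferation medium (log2 2.55 ± 0.36, adjusted p = 0.0222). In differentiation medium Cdkn1a rose to 99.6, 46.0 and 33.6 TPM, against 16.3 and 17.1 TPM (log2 1.63 ± 0.36, adjusted p = 0.0430). Trp53 rose in Atrx-deleted lines in differentiation medium (132.9, 120.6 and 87.6 TPM against 55.9 and 54.5 TPM, log2 1.01 ± 0.18, adjusted p = 0.0232), although the lines are labelled p53-null, and a value per gene does not show which exons were read. Mdm2 did not pass (log2 -0.21 and -0.28 between genotypes, adjusted p = 0.650 and 0.426).

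Genes that resemble the members in level, length or name did not show the same medians. The 329 other genes with at least 100 TPM and at most 2000 exon bases had medians of 0.01 and 0.04 between genotypes and of 0.02 and 0.04 between media, in control and in Atrx-deleted lines. The 77 genes for mitochondrial ribosomal proteins had medians of -0.04 and 0.13 between genotypes and of -0.01 and 0.15 between media. Mrpl38 and Mrpl2 rose in Atrx-deleted lines in differentiation medium (log2 1.24 and 1.08, adjusted p = 0.0224 and 0.0180), and Mrpl53 fell in control lines between media (log2 -1.14, adjusted p = 0.0338). The 85 tested nuclear genes of the respiratory chain had medians of 0.00 and -0.02 between genotypes, with Ndufb8 past the test as higher and Cox6b2 and Ndufaf2 as lower in Atrx-deleted lines in differentiation medium. Of 12 chaperones and assembly factors of ribosomal proteins, 11 ribosome quality control genes and 8 noncoding snoRNA hosts, 0 passed in any comparison.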

How the data were processed

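The authors deposited 1 table of log2 values for 21101 genes and 10 libraries; per the labels' protocols, total RNA was extracted with a Qiagen RNeasy kit and libraries were made with an Illumina TruSeq RNA kit. Per the submitters' processing notes, reads were aligned with STAR to mm10; no version, annotation or quantification tool is named there (not given in the sources used here). The columns share 1 sorted set of values (quantile normalisation) with a floor of -8, and after back-transformation each sums to 997524, so the unit was taken to be log2 TPM. The planned test, which assumed linear TPM, was kept after back-transformation. Depth is unknown, so no counting interval is given.

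A limma model (3.58.1, under R 4.3.3, mean-variance trend) of log2(TPM + 1) had 4 group means over all 10 libraries and 6 residual degrees of freedom. A gene was tested if 2 or more libraries reached 1 TPM (15660 genes), with Benjamini-Hochberg adjustment over all of them and a threshold of 0.05; the pseudocount understates changes of genes with low levels. The fit was tested on simulated data. The members and gene lists were chosen with earlier results of these data known, so no list test and no p over the members is given; lists were written from general knowledge.

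Named genes were every member past the threshold (in the interaction, the 3 of smallest p), a fixed set of members and regulators, the 5 highest and 5 lowest members, the paralogs, the 3 most and least variable members, and up to 3 passing genes per direction of the other lists; others are said to be chosen after their values were seen. Some names that the rule gives are covered by counts only. The labels give the same line in both media, which pairs the samples: correlations of deviations from the group mean over all genes were 0.159 (mA16d#4), 0.404 (mA19d#4), -0.194 (mA19d#7) and 0.0624 (control lines), and a replicate block was an alternative. Other alternatives were pseudocounts, filters, no trend, robust estimation, compared groups alone, scaling, deposited log2 values and each library, and line mA19d#7, left out. Positions are from GENCODE M21 and promoter windows from RefSeq, both on GRCm38. Results for some genes are not reported here.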

Additional observations from a re-analysis of the deposited data

Results flagged for a closer look

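The responses of Rpl12 and Rpl5 to differentiation medium ran in opposite directions by genotype, in every line. Both genes were flagged for this pattern from the line values of the 79 tested members. The share of all tested genes with the same pattern is not given, so the pattern cannot be set against it. For Rpl12 the log2 difference between differentiation and proliferation medium was -1.76, -1.54 and -1.04 in mA16d#4, mA19d#4 and mA19d#7, against 0.21 and 0.54 in Control NSC#1 and Control NSC#2. The difference between the group responses was -1.82 on the log2 scale, and its limma test did not pass after adjustment over all genes (adjusted p = 0.230). For Rpl5 the line values were -0.08, -0.12 and -0.89 against 0.15 and 0.14, and the difference was -0.51 (adjusted p = 0.800), with the library labelled mA19d#7 giving most of it.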

How the results depend on the processing

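The medians over the members between genotypes and between media kept their direction under every alternative run, and moved by less than 0.21. That value is the pooled SD, within groups, of each library's median log2(TPM + 1) over the tested members. The median of the interaction, 0.01, changed sign: it ran from -0.12 to 0.12 without 1 library, and was -0.02 with median-of-ratios factors and 0.15 without line mA19d#7. Leaving out 1 library gave medians of 0.40 to 0.52 and 0.28 to 0.49 between genotypes (proliferation and differentiation medium), and of -0.62 to -0.48 and -0.62 to -0.40 between media (control and Atrx-deleted lines). Counts of members called depended on the processing; the cause was not tested. For genotypes in proliferation medium, 1 member was called as reported, 0 with a pseudocount of 0.1, the deposited log2 values, no filter, no trend or the 2 groups alone, 3 with median-of-ratios factors, 2 with rescaling on other genes, 3 without line mA19d#7, and 0 to 5 without 1 library. For genotypes in differentiation medium it was 5 as reported, 1 without a filter, 0 with the groups alone, 11 without line mA19d#7 and 0 to 15 without 1 library. For media in control lines it was 1 as reported, 0 with a pseudocount of 0.1, the deposited log2 values, no filter or a fixed replicate block, 2 with a filter of 5 TPM, a random replicate block or median-of-ratios factors, 26 with the groups alone, 7 without line mA19d#7 and 0 to 11 without 1 library. For media in Atrx-deleted lines it was 1 as reported, 0 with a pseudocount of 5, the deposited log2 values, no filter, no trend, the groups alone, a fixed replicate block or without line mA19d#7, and 0 to 4 without 1 library. The interaction gave 0 under every alternative run. A fixed replicate block could not be fitted between genotypes, since each line has 1 genotype; the blocks changed no other count. Single genes passed in 8 of 23 settings (Rpl12) to 19 of 22 (Rpl19), with adjusted p-values from 0.0220 to 0.256 and from 0.0141 to 0.241.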
